A study of Mus musculus with 6 samples.

Results

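The genes described here were 9 of 14484 measured genes, all within 20 Mb of Atr on mouse chromosome 9. They were picked because their p-values between ATR mD/mD and ATR WT skin were small, and they were Zfp949, 9430037G07Rik, Pxylp1, Elovl5, Ppm1m, Abhd14a, Parp3, Hemk1 and Glb1. All 9 symbols were found in the table, and the filter on low counts removed no gene. Their differences between genotypes are therefore the values that chose them, and they are given below as a description without a test.

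RNA sequencing was done on skin from 6 mouse samples, 3 ATR mD/mD and 3 ATR WT. The ATR mD/mD animals were ATR fl/fl; Braf CA/+; Cre +, which the labels equate with removal of part of the ATR kinase domain, and the ATR WT animals were ATR +/+; Braf CA/+; Cre +. Both groups thus carried a Braf CA allele and Cre, with C57BL/6-129J as strain background, and the mutant samples are labelled as nevi, benign growths of pigment cells. No source used here gives the cells in which Cre acts, the age of the animals or whether each sample is a separate animal, so every p-value below rests on a spread between samples that may be partly technical. Total gene counts lay between 34723600 and 38565590 per ATR mD/mD library and between 39297160 and 46847751 per ATR WT library. Of 12 keratinocyte markers 11 were measured, with a summed level of 17967 to 24092 CPM in ATR mD/mD and 14919 to 24832 CPM in ATR WT, and no measured marker of keratinocytes, melanocytes or fibroblasts was at 0 in all libraries. CPM is a gene's count relative to the library total after TMM scaling. Summed melanocyte markers, 8 of 8 measured, ranged from 134 to 859 CPM in ATR mD/mD and from 201 to 869 CPM in ATR WT. In bulk skin, fewer cells of a type and less RNA per cell cannot be told apart.

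Atr encodes a kinase that answers stalled DNA replication. Genes that lie near each other on a chromosome tend to be inherited together, so animals bred for an allele of one gene often share the chromosome stretch around it as well. No file used here gives the strain of origin of that stretch, and in this design the Atr genotype and alleles linked to Atr cannot be told apart. The 9 genes have unrelated roles: Zfp949 is a zinc finger gene, 9430037G07Rik a long intergenic noncoding RNA, and the other 7 encode enzymes or enzyme-like proteins of lipid, sugar, phosphate, ADP-ribose and methyl group chemistry.

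On the mm10 build, with GENCODE M21 positions, 3 of the 9 genes lay before Atr and 6 after it. Elovl5 (77917364 to 77984519, plus strand) was the farthest before Atr, with 17.9 Mb between the gene starts. Zfp949 (88548020 to 88571061, plus strand) and 9430037G07Rik (88595325 to 88599516, minus strand) lay 24.3 kb from each other. Pxylp1 (96823336 to 96892669, minus strand) was the nearest to Atr, at 0.966 Mb. A cluster of 4 followed between 10 and 12 Mb, made of Ppm1m (106194947 to 106199746), Abhd14a (106440051 to 106447678), Parp3 (106470322 to 106476949) and Hemk1 (107327084 to 107338350), all on the minus strand. Glb1 (114401076 to 114474898, plus strand) was the farthest after Atr, at 18.5 Mb. Atr itself spans 95857597 to 95951781.

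RefSeq start windows (GRCm38.p6) were found for all 9 genes, and those of 6 are shown because they carry the largest differences in each direction or a motif that is rare among start windows. Each line is the 250 bases before the RefSeq start, on the strand of the gene. Capitals mark matches, on either strand, to CCAAT, to the GC box GGGCGG, to the E-box CACGTG and to TATAAA. The first 4 windows belong to the lower genes Zfp949 (chr9:88547770-88548019) and Pxylp1 (chr9:96889475-96889724) and to the higher genes 9430037G07Rik (chr9:88599244-88599493) and Hemk1 (chr9:107338351-107338600). The last 2 belong to Elovl5 (chr9:77917115-77917364) and Glb1 (chr9:114400828-114401077).
Zfp949: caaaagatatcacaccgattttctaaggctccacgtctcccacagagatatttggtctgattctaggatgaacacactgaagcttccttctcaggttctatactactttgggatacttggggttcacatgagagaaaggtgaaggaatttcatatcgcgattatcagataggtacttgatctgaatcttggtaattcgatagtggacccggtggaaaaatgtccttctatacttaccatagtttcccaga
Pxylp1: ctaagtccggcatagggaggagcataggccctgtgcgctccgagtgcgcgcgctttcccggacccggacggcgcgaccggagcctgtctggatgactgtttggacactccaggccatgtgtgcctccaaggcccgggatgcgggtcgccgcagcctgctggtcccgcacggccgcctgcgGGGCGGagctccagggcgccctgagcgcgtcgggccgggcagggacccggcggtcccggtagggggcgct
9430037G07Rik: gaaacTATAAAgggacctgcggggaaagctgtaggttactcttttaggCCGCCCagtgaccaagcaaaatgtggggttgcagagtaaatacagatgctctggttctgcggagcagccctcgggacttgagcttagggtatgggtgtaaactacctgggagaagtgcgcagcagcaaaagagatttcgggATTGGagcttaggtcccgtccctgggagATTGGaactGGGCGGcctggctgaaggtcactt
Hemk1: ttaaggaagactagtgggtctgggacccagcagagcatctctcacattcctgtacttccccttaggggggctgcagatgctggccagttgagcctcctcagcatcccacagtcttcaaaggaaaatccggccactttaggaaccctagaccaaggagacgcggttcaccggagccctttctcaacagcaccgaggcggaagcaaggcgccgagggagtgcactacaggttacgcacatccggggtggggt
Elovl5: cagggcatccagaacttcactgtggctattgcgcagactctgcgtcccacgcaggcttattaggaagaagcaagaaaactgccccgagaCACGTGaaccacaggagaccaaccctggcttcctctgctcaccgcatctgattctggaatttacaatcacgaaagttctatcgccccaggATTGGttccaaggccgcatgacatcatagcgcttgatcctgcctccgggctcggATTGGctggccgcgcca
Glb1: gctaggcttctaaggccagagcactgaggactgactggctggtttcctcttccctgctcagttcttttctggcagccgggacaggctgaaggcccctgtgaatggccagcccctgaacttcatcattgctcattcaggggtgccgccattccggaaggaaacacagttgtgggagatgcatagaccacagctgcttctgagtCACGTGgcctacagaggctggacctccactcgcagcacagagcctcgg

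No motif searched stood in every window. That of Zfp949 and that of Hemk1 held none of them, and their GC content was 41.2% and 58.0%. The Pxylp1 window was the richest in G and C of the 6 shown, at 73.6%, and held 1 GC box. The 9430037G07Rik window held 2 CCAAT matches, 2 GC boxes and 1 TATAAA, and 30 of its bases lay in an annotated exon of the same gene. An E-box CACGTG stood in the windows of Elovl5 and Glb1, against 6.02% of 32851 start windows of all genes. CCAAT stood in 33.8% of all windows, the GC box in 32.7%, TATAAA in 12.4% and TGACGTCA, found in no window of the 9 genes, in 1.55%. The Pxylp1 window lies inside the longer GENCODE gene, which starts farther out. A match is a description of letters and not of binding.

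The 2 genes at the Zfp949 locus differed between genotypes in opposite directions. Zfp949 had 21.8, 25.1 and 21.8 CPM in ATR mD/mD libraries 1, 2 and 3, against 64.2, 79.4 and 77.1 CPM in ATR WT libraries 1, 2 and 3. Every ATR mD/mD library was thus far below every ATR WT library, and the lowest ATR WT level was 2.56 times the highest ATR mD/mD level. The log2 fold change was -1.69 (SE 0.137), from counts of 762, 987 and 760 against 2330, 3453 and 3767. 9430037G07Rik had 3.80, 2.77 and 2.55 CPM in ATR mD/mD, against 1.43, 1.10 and 1.00 CPM in ATR WT. All ATR mD/mD levels of this RNA lay above all ATR WT levels, and its log2 fold change was 1.36 (SE 0.293). It is the member with the fewest reads, 133, 109 and 89 counts in ATR mD/mD and 52, 48 and 49 counts in ATR WT. The ratio of the 2 genes within a library does not depend on library scaling. There were 17.5, 11.04 and 11.7 counts of 9430037G07Rik per 100 counts of Zfp949 in ATR mD/mD, against 2.23, 1.39 and 1.30 in ATR WT.

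Pxylp1 encodes a phosphatase that removes phosphate from the xylose of the linker joining glycosaminoglycan chains to their core proteins. Its level was 3.89, 4.596 and 3.78 CPM in ATR mD/mD and 10.01, 11.4 and 11.5 CPM in ATR WT. Both groups were tight and the gap between their nearest libraries was 2.18-fold. The log2 fold change was -1.43 (SE 0.189), the second largest in size among the 9 after Zfp949. Elovl5 encodes an elongase of polyunsaturated fatty acids in the endoplasmic reticulum. It had 187, 182 and 176 CPM in ATR mD/mD, against 277, 262 and 248 CPM in ATR WT. All ATR mD/mD levels were below all ATR WT levels, by a 1.33-fold gap (log2 fold change -0.53, SE 0.122). Glb1 encodes the lysosomal beta-galactosidase. Its level was 16.3, 17.3 and 15.7 CPM in ATR mD/mD and 26.4, 22.6 and 26.3 CPM in ATR WT, with a log2 fold change of -0.61 (SE 0.133) and a gap of 1.30-fold.

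**Figure D1:**
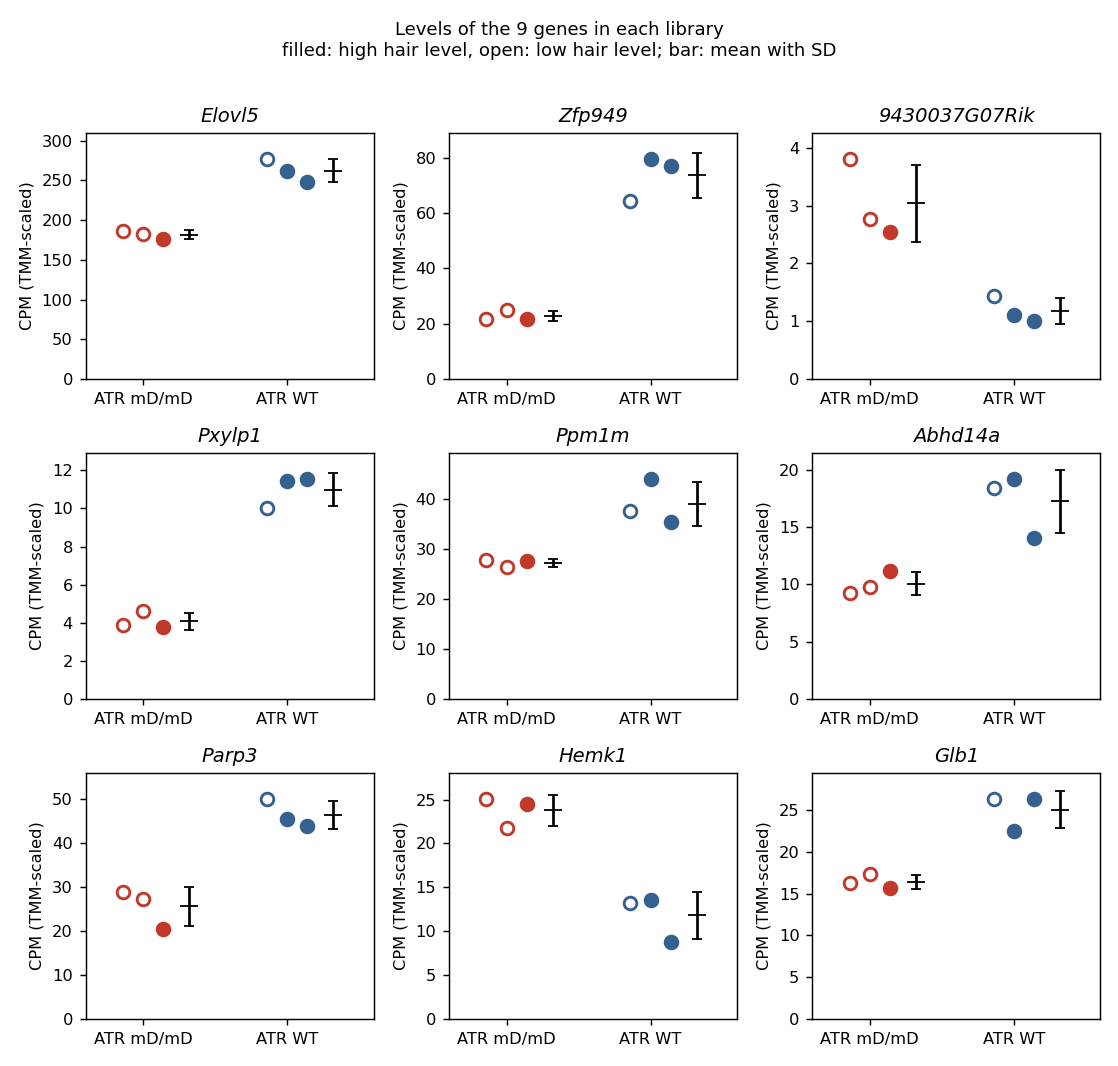
Level of each of the 9 genes in CPM (y axis, starting at 0) in the 3 ATR mD/mD and 3 ATR WT libraries, in order of position on chromosome 9. Filled points are libraries of high hair level and open points libraries of low hair level, and bars are means with SD. In each panel the groups do not overlap, with ATR mD/mD above ATR WT only for 9430037G07Rik and Hemk1.

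In the cluster beyond 10 Mb, 3 genes were lower in ATR mD/mD and 1 was higher. Parp3 encodes an ADP-ribosyltransferase that acts at DNA double-strand breaks. Its level was 28.9, 27.3 and 20.5 CPM in ATR mD/mD libraries 1, 2 and 3 and 49.96, 45.4 and 43.8 CPM in ATR WT libraries 1, 2 and 3. ATR mD/mD 3 was the lowest library, and the nearest libraries of the groups were 1.52-fold apart (log2 fold change -0.86, SE 0.165). Hemk1 encodes a methyltransferase which in human cells modifies a mitochondrial translation release factor. It had 25.1, 21.8 and 24.5 CPM in ATR mD/mD, against 13.2, 13.5 and 8.72 CPM in ATR WT. All ATR mD/mD libraries were above ATR WT, by at least 1.61-fold, and ATR WT 3 stood lower than the other 2 (log2 fold change 1.01, SE 0.205). Per 100 counts of Parp3 there were 86.9, 79.8 and 119.4 counts of Hemk1 in ATR mD/mD, against 26.5, 29.8 and 19.9 in ATR WT, although the genes lie less than 1 Mb apart.

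Abhd14a encodes an alpha/beta hydrolase domain protein. It had 9.26, 9.78 and 11.2 CPM in ATR mD/mD, against 18.4, 19.2 and 14.1 CPM in ATR WT. The gap of 1.26-fold between ATR mD/mD 3 and ATR WT 3 was the narrowest of the 9 genes (log2 fold change -0.77, SE 0.183). Ppm1m encodes a serine/threonine phosphatase of the metal-dependent PPM family. Its level was 27.8, 26.3 and 27.6 CPM in ATR mD/mD and 37.6, 43.95 and 35.3 CPM in ATR WT, and the gap was 1.27-fold. Its log2 fold change of -0.52 (SE 0.131) was the smallest of the 9 in size. Over all 9 genes, the coefficient of variation within a group was between 2.89% and 22.8%.

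On a scale of CPM per kb of annotated exon, Elovl5 was the highest of the 9 in both groups, at 51.6 in ATR mD/mD and 74.4 in ATR WT. The second place differed, with Ppm1m at 10.05 in ATR mD/mD and Zfp949 at 17.9 in ATR WT. Zfp949 was at 5.56 in ATR mD/mD on this scale, close to Glb1 at 5.46. Pxylp1 was the lowest in ATR mD/mD at 0.665, and 9430037G07Rik the lowest in ATR WT at 0.313. Atr itself, the targeted gene, was at 20.8, 22.2 and 24.8 CPM in ATR mD/mD and 17.6, 24.5 and 24.2 CPM in ATR WT, so its groups overlapped. A count over the whole gene does not check a deletion of part of it.

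By the rule that chose them, all 9 genes had an unadjusted p under 0.05, 7 of them lower in ATR mD/mD, against 1.09% of all genes, and 2 higher, against 0.566%. None of the 9 had overlapping groups, against 4.84% of all genes whose groups did not overlap. At an adjusted p under 0.05 edgeR called 1 of the 9, Zfp949, against 0.0483% of all genes, and DESeq2 called 5, which were Zfp949, Pxylp1, Elovl5, Parp3 and Hemk1, against 0.27% of the 14437 genes it tested. The adjusted p of Zfp949 in edgeR was 0.0190, and it was 0.0350 without ATR WT 1 and between 0.107 and 0.195 without any other single library. It was 0.178 with the level of Y-linked genes as a covariate. Nothing is read from these counts, since the same contrast picked the genes.

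Other genes of the region also showed small p-values. The region within 20 Mb held 274 measured genes besides Atr, of which 21 (7.66%) had an unadjusted p under 0.05, 13 lower and 8 higher in ATR mD/mD (edgeR quasi-likelihood test). The same share was 1.66% over all 14484 genes, 1.45% on chromosome 9 beyond 20 Mb and 1.56% on the other chromosomes. Groups that did not overlap were found for 44 of the 274 genes (16.1%), against 4.84% of all genes. Without the 9 genes, 12 of the remaining 265 (4.53%) had a p under 0.05 and 35 (13.2%) had groups that did not overlap. Both the region and the 9 genes were picked with this contrast known, so these shares are a description. Leaving out ATR mD/mD 3 gave 36 genes in place of 21, 18 lower and 18 higher, and leaving out ATR mD/mD 1 gave 14, 9 lower and 5 higher. Within 10 Mb of Atr, a smaller window with fewer measured genes, there were 9, of which 3 were lower and 6 higher.

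Small p-values were spread over the region and did not gather at Atr. In steps of 5 Mb, the number of genes with a p under 0.05 was 3 of 25, 0 of 11, 3 of 28 and 1 of 13 before Atr, and 2 of 29, 3 of 30, 7 of 107 and 2 of 31 after it. The median log2 fold change of the region was -0.002, against 0.007 over all genes, with 139 genes lower and 135 higher. The directions were thus nearly balanced over the region.

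**Figure D2:**
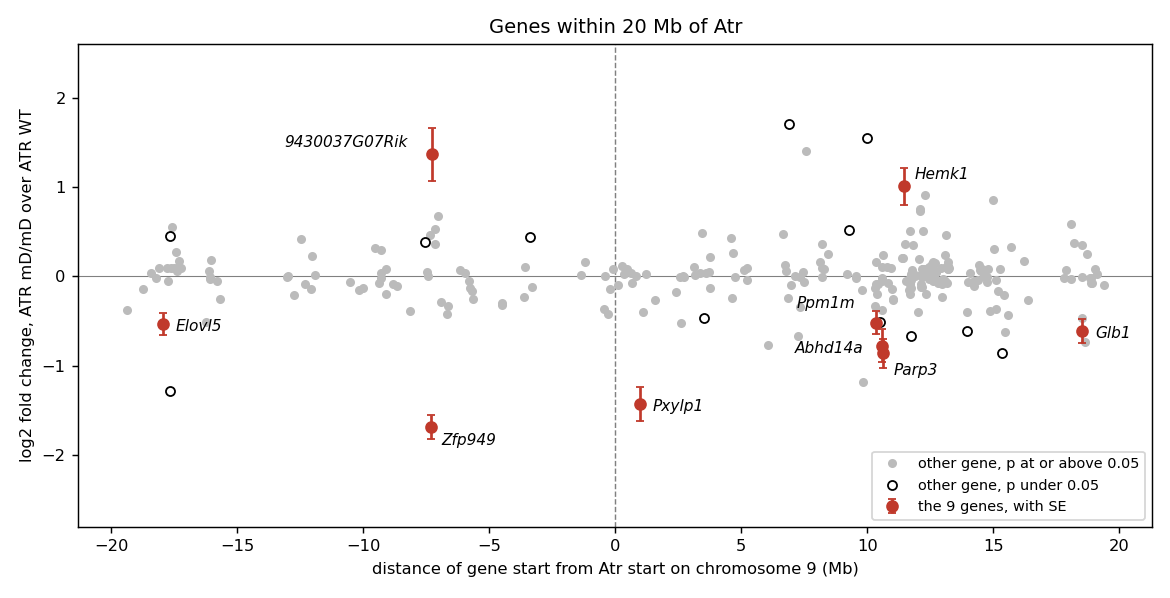
Log2 fold change of ATR mD/mD over ATR WT (y axis) for 274 genes within 20 Mb, against the distance of the gene start from the Atr start (x axis, Mb). Red points with SE are the 9 genes, open points are other genes with an unadjusted p under 0.05 and grey points the rest. Most genes lie near 0 at every distance, and the 9 genes lie on both sides of Atr.

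The p-values of the 9 genes ran from 9.17e-06 (Zfp949) to 0.00651 (Ppm1m), before adjustment, and 11 genes of the region had a p in that range. The other 2 were Col6a5, a collagen VI chain gene, and C920006O11Rik, a noncoding RNA gene, which were not on the list of 9. Col6a5, which lies after Atr at nearly the distance of Ppm1m, had 10.5, 10.5 and 15.6 CPM in ATR mD/mD, against 3.45, 4.21 and 4.87 CPM in ATR WT (log2 fold change 1.55, SE 0.252). C920006O11Rik, 17.7 Mb before Atr and so near Elovl5, averaged 1.01 ± 0.262 CPM in ATR mD/mD and 2.45 ± 0.410 CPM in ATR WT (SD, n = 3 each). Just beyond Ppm1m in the order of p came Gm5627, a noncoding RNA gene, with a log2 fold change of 1.70 (SE 0.460). Nt5e, which encodes a nucleotidase of the cell surface, also lay outside that range, with a log2 fold change of 0.38 (SE 0.125).

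The genes next to the 9 showed smaller differences. Each of the 9 has a nearest measured gene on either side, which gave 16 neighbours that are not among the 9. Their log2 fold changes ran from -0.47 (Tmppe) to 0.46 (Snhg5), 8 lower and 8 higher. None of the 16 had an unadjusted p under 0.05 in edgeR, DESeq2 or limma-voom, and the smallest p in edgeR was 0.118 (Mthfsl). Over all genes these shares were 1.66% in edgeR, 2.08% in DESeq2 and 1.78% in limma-voom, so a count of 0 among 16 is near the background. Only in Wdr82 did the groups not overlap, which is 1 of 16 against 4.84% of all genes. Since the 9 genes were picked for their difference and the neighbours were not, the contrast between them is partly built in.

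At the Zfp949 locus the outer neighbours were both nominally higher in ATR mD/mD. Snhg5, a host gene of small nucleolar RNAs, averaged 40.1 ± 15.1 CPM in ATR mD/mD and 29.0 ± 2.00 CPM in ATR WT (SD, n = 3 each), with overlapping groups. On the other side, Mthfsl averaged 10.6 ± 1.81 CPM in ATR mD/mD and 8.28 ± 0.719 CPM in ATR WT (SD, n = 3 each). Around Pxylp1, Zbtb38 averaged 3.37 ± 0.618 CPM in ATR mD/mD and 3.37 ± 3.05 CPM in ATR WT, and Spsb4 averaged 2.08 ± 1.505 CPM in ATR mD/mD and 2.73 ± 0.840 CPM in ATR WT (SD, n = 3 each). The groups of both overlapped, and Spsb4 passed the test for hair gene level given further on (adjusted p = 0.0398, edgeR). Beside Elovl5, Gclc had a log2 fold change of 0.09 (SE 0.482) and passed the hair term (adjusted p = 0.0298, edgeR). Fbxo9 on the other side had 0.10 (SE 0.145).

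In the cluster, Ppm1m lies 3.81 kb from Wdr82 and 3.36 kb from Twf2. Wdr82 had a log2 fold change of -0.13 (SE 0.106), and Twf2 had -0.09 (SE 0.337). Abhd14a shares 220 bases with Abhd14b on the opposite strand, and Parp3 shares 987 bases with Rrp9. The library kit does not mark the strand, so reads from shared stretches cannot be assigned to either gene. Abhd14b had a log2 fold change of -0.38 (SE 0.336), in the direction of Abhd14a, and passed the hair term (adjusted p = 0.0444, edgeR), while Acy1 on the other side had 0.11 (SE 0.173). Rrp9 had 0.24 (SE 0.177), opposite to Parp3, and Pcbp4 had -0.05 (SE 0.129). Hemk1 stands 2.25 kb from 6430571L13Rik, which had 0.37 (SE 0.303), and 24.3 kb from Cish, which had 0.20 (SE 0.213). Tmppe lies wholly inside Glb1, on the same strand and over 6172 shared bases, so the counts of both are uncertain where they share exons. It had a log2 fold change of -0.47 (SE 0.334), and Crtap on the other side had -0.01 (SE 0.127).

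**Figure D3:**
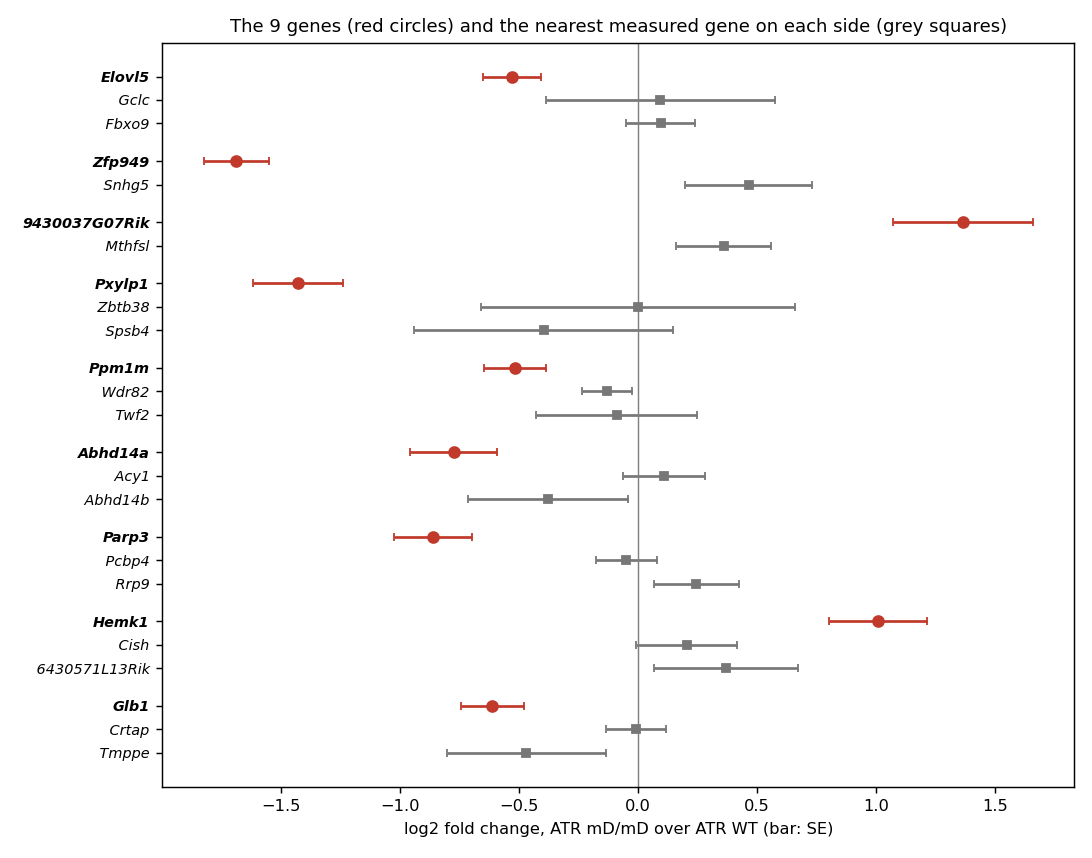
Log2 fold change of ATR mD/mD over ATR WT with SE (x axis) for the 9 genes (red circles, bold names) and, under each, the nearest measured genes on either side (grey squares), from Elovl5 at the top to Glb1 at the bottom. Zfp949 and 9430037G07Rik are each other's neighbours and so have 1 grey square each. The grey squares lie between -0.47 and 0.46.

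The libraries differed widely in hair gene level, and the levels of the 9 genes were set against it. The hair level of a library is the mean log2 CPM of 26 genes of the hair shaft and inner root sheath, such as hair keratins. It was -0.59, 2.22 and 7.65 in ATR mD/mD 1, 2 and 3 and 1.86, 7.44 and 7.71 in ATR WT 1, 2 and 3. The low libraries were thus ATR mD/mD 1, ATR mD/mD 2 and ATR WT 1, and the high libraries ATR mD/mD 3, ATR WT 2 and ATR WT 3. Melanocyte markers moved with hair level, at a mean of 3.24, 3.40 and 6.02 log2 CPM in ATR mD/mD 1, 2 and 3 and 3.97, 6.17 and 5.59 log2 CPM in ATR WT 1, 2 and 3, and their part in the results was not tested. In a model with genotype and hair level, the hair term passed an adjusted p under 0.05 in 1230 genes, which is 8.49% of all genes, and in 23 of the 274 genes of the region (8.39%). This term was not itself used to choose the 9 genes. A gene that follows hair level spreads within its group, and so is less likely to have a small p between genotypes. The choice thus leaned away from such genes, and a low count among the 9 is partly built in. The hair term passed in 0 of the 9, with an unadjusted p under 0.05 in 1 (Parp3), against 26.3% of all genes (edgeR quasi-likelihood test with Benjamini-Hochberg adjustment).

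For Parp3 the fitted shift over the whole range of hair levels, 8.30 on the log2 scale, was -0.41 (95% interval -0.79 to -0.02, adjusted p = 0.171, edgeR). Parp3 was lowest in the high hair library of ATR mD/mD, at 20.5 CPM. For Zfp949 the shift was 0.13 (95% interval -0.30 to 0.57), and for Elovl5 it was -0.12 (-0.50 to 0.26). For Ppm1m it was 0.04 (-0.39 to 0.47), and for Glb1 it was -0.11 (-0.53 to 0.32). The intervals of Pxylp1 (-0.56 to 0.68), Abhd14a (-0.50 to 0.65) and Hemk1 (-0.77 to 0.48) were wider. The widest belonged to 9430037G07Rik, with a shift of -0.58 (-1.33 to 0.17). These intervals leave room for moderate hair effects of either sign in most of the 9. In place of 1230 genes, the hair term passed in 150 when ATR mD/mD 3 was left out, and in 413, 379 and 571 when ATR WT 1, 2 and 3 were left out in turn.

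The genotype difference had the same direction on both sides of the hair division. Among libraries of low hair level, 2 of ATR mD/mD and 1 of ATR WT, Zfp949 averaged 23.4 CPM in ATR mD/mD and stood at 64.2 CPM in ATR WT. Among those of high hair level, 1 of ATR mD/mD and 2 of ATR WT, it stood at 21.8 CPM in ATR mD/mD and averaged 78.3 CPM in ATR WT. The log2 ratios were -1.46 and -1.85 for Zfp949, -1.24 and -1.60 for Pxylp1, and 1.20 and 1.27 for 9430037G07Rik, low side first. They were 0.82 and 1.14 for Hemk1, -0.83 and -1.12 for Parp3, and -0.95 and -0.58 for Abhd14a. Elovl5 had -0.58 and -0.53, Glb1 -0.65 and -0.64, and Ppm1m -0.47 and -0.52. With 1 library on one side of each ratio, these values have no test.

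**Figure D4:**
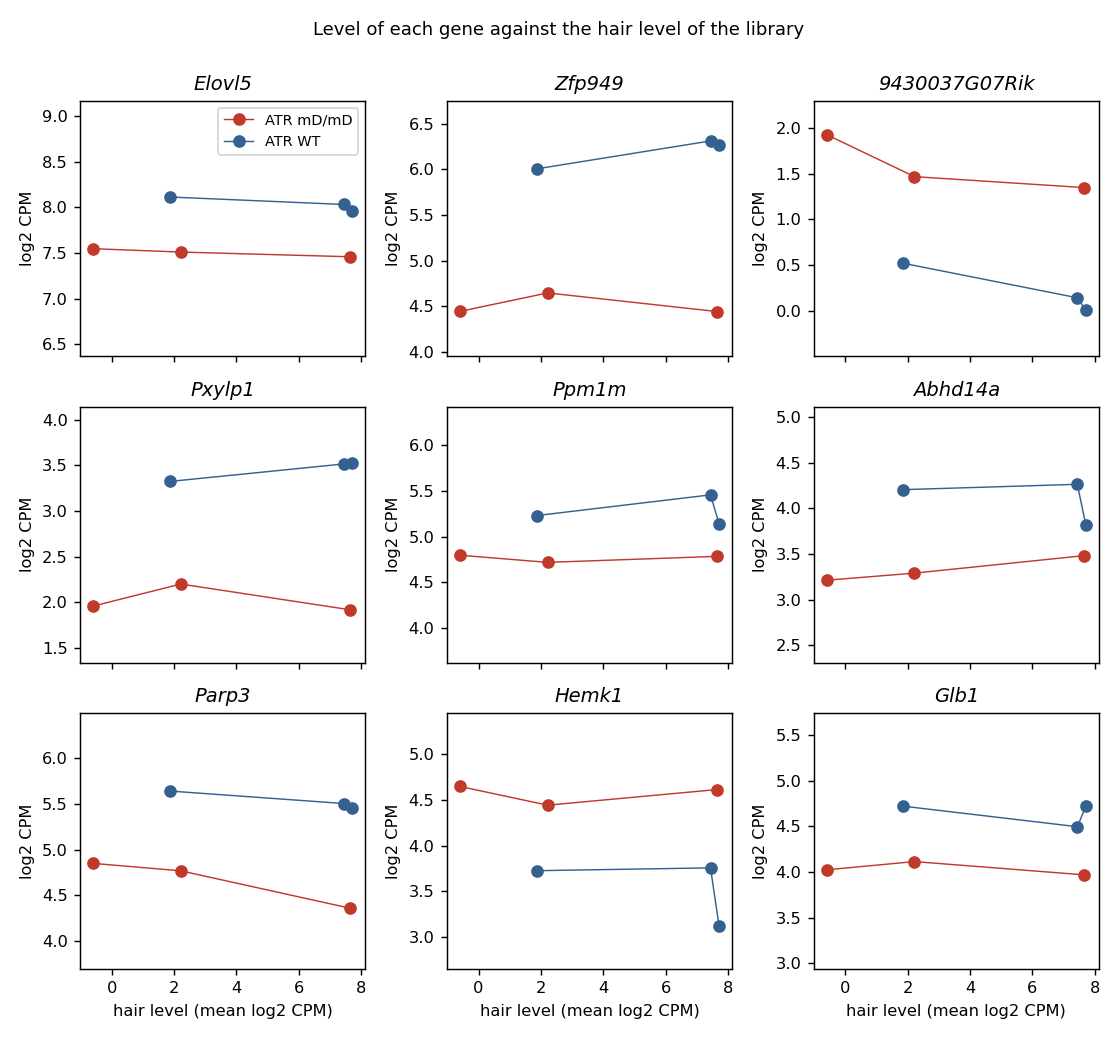
Level of each of the 9 genes (y axis, log2 CPM, every panel spanning the same range) against the hair level of the library (x axis, mean log2 CPM of 26 hair genes), with ATR mD/mD in red and ATR WT in blue and lines joining libraries of a group. The red and blue points stay apart at low and at high hair level, as in Zfp949 with log2 ratios of -1.46 and -1.85. This follows from groups that do not overlap in any of the 9 genes.

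Sex-linked transcripts also divided the libraries, and unevenly between genotypes, with high levels in ATR mD/mD 2, ATR mD/mD 3 and ATR WT 1. Averaged over 4 Y-linked genes, the level was -3.68, 5.17 and 5.17 log2 CPM in ATR mD/mD 1, 2 and 3 and 4.75, -4.04 and -3.61 log2 CPM in ATR WT 1, 2 and 3. With this level as a covariate the log2 fold changes of Zfp949, Pxylp1 and 9430037G07Rik were -1.65, -1.41 and 1.38, and Zfp949 no longer passed (adjusted p = 0.178, edgeR).

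Genes that work with the 9 or resemble them were then examined, in 7 lists chosen by role. Of 124 listed genes 118 were measured, and 0 had an adjusted p under 0.05 in edgeR, in DESeq2 or in limma-voom. The share was 0.0483% of all genes in edgeR and 0.27% of tested genes in DESeq2, so a count of 0 is near the background. At an unadjusted p under 0.05, 0 of the 118 were found by edgeR and 1 by DESeq2, against 1.66% of all genes in edgeR and 2.08% in DESeq2. Of the 118, 65 had a negative and 53 a positive log2 fold change. The 4 genes whose groups did not overlap, against 4.84% of all genes, were Scd2, Abhd5, Parp11 and Idua. Log2 fold changes ran from -0.67 (Abhd2, SE 0.674) to 0.36 (Xylt1, SE 0.439). Every list median lay between -0.03 and 0.03, while the median over all genes was 0.007.

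Around Elovl5, the 15 measured genes of fatty acid elongation and desaturation had a median log2 fold change of 0.0005, with 8 higher and 7 lower. Scd2, a desaturase, averaged 186 ± 19.6 CPM in ATR mD/mD and 237 ± 25.2 CPM in ATR WT (SD, n = 3 each), which is -0.35 on the log2 scale (SE 0.1501). Fads1, the delta-5 desaturase gene, had -0.18 (SE 0.139). Around Pxylp1, the 12 genes of glycosaminoglycan linker synthesis had a median of -0.03, with 5 higher and 7 lower. Xylt2, which encodes a xylosyltransferase that starts the linker, had 0.18 (SE 0.127), and Csgalnact1, which starts chondroitin chains, had -0.33 (SE 0.326). Csgalnact1 also passed the hair term (adjusted p = 0.04997, edgeR).

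Around Parp3, 20 measured genes of ADP-ribosylation had a median of -0.02, with 9 higher and 11 lower, and Parp11 and Adprh had -0.18 (SE 0.134) and -0.16 (SE 0.142). Of 29 lysosomal genes set beside Glb1, 9 were higher and 20 lower, with a median of -0.02. Among them Gaa, the acid alpha-glucosidase gene, had -0.16 (SE 0.127) and Hexa, a hexosaminidase gene, -0.21 (SE 0.163). The 9 measured release factor genes and their partners beside Hemk1 had a median of -0.0008, with 4 higher and 5 lower, and N6amt1, a methyltransferase of a release factor, had 0.12 (SE 0.162) while Gfm1 had -0.13 (SE 0.208). Beside Ppm1m, 17 genes of the same family had a median of 0.01, with Ppm1h at -0.25 (SE 0.260) and Tab1 at 0.17 (SE 0.177). Beside Abhd14a, 16 hydrolase domain genes had a median of 0.03, with Abhd14b, its overlapping neighbour, at -0.38 (SE 0.336) and Abhd6 at 0.15 (SE 0.145).

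**Figure D5:**
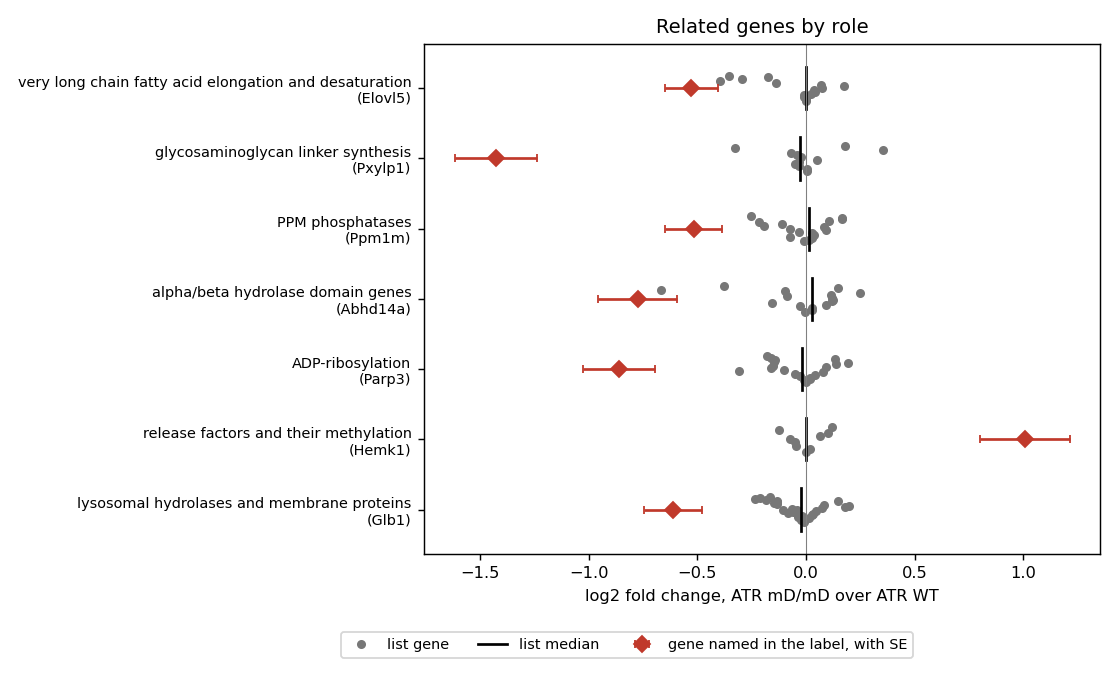
Log2 fold change of ATR mD/mD over ATR WT (x axis) for the measured genes of 7 lists (grey points, black line at the list median) and for the gene each list was built around (red diamond with SE). The list medians lie between -0.03 and 0.03, and each red diamond lies away from 0.

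Among the 9, the profiles over the 6 libraries most alike were those of Elovl5 and Ppm1m. Likeness was measured as the root mean square difference of log2 CPM after each gene was centred on its mean, and it was 0.100 for this pair, 0.103 for Elovl5 and Glb1, and 0.137 for Zfp949 and Pxylp1. The least alike pair was Zfp949 and 9430037G07Rik, at 1.53, and these 2 lie 24.3 kb apart. Among the 9, this measure largely restates the genotype differences that chose them. Outside the 9, the genes nearest to Zfp949 in profile were Gm14295 (0.159), Gria4 (0.231), Gm14327 (0.269), Wfdc3 (0.272) and Trim34a (0.272). Gm14295, Gm14327 and Trim34a have close copies, so their counts are uncertain. Of the 5, only Gria4, which encodes a glutamate receptor subunit, is on chromosome 9, 91.4 Mb before Atr and so outside the region. Gm14295, on chromosome 2, averaged 6.51 ± 0.538 CPM in ATR mD/mD and 22.0 ± 4.77 CPM in ATR WT (SD, n = 3 each), and Wfdc3, also there, 1.88 ± 0.634 CPM in ATR mD/mD and 7.70 ± 0.361 CPM in ATR WT.

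Gria4 was likewise the nearest in profile to Pxylp1 (0.173), at 1.37 ± 0.362 CPM in ATR mD/mD and 3.68 ± 0.663 CPM in ATR WT (SD, n = 3 each). For the other members, the nearest genes were Abcc6 for 9430037G07Rik (0.165), Hddc3 for Hemk1 (0.167), Lyrm7 for Parp3 (0.137) and Foxd2 for Abhd14a (0.101). They were Akr1b10 for Elovl5 (0.0908), 9930104L06Rik for Ppm1m (0.0501) and Rsph3a for Glb1 (0.107). None of these 7 genes is on chromosome 9, and with 6 libraries such likeness is a description only.

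The authors' deposited table listed the 9 genes with the same directions. In the authors' deposited table the log2 fold change was -1.69 for Zfp949, -1.43 for Pxylp1, 1.37 for 9430037G07Rik and 1.01 for Hemk1. Its p-values were larger than 0.05 for Glb1 (0.0570), Ppm1m (0.0918) and Elovl5 (0.123), and only Zfp949 had an adjusted p under 0.05 there (4.96e-05).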

How the data were processed

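Per the file headers, the deposited file is a single matrix with integer read counts for each gene in 6 libraries, beside the authors' own edgeR output: log2 fold change, mean log2 CPM, p-value and FDR. The submitters' processing notes list FastQC, TopHat2 2.0.12, edgeR and mm10, and the sources used here do not name the counter, the annotation or any filter. The kit was TruSeq RNA v2, which does not mark strand, per the labels' protocols. Entries naming no gene (2, with 4.93% to 5.72% of counts) were left out.

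Counts were scaled with TMM and tested with edgeR 4.0.16 (R 4.3.3) quasi-likelihood tests over 14484 genes, with filterByExpr, which removed none. Adjusted values are Benjamini-Hochberg over all genes. SEs were derived as |log2 fold change| over the square root of F. Positions and exon lengths came from GENCODE M21, in which 13964 symbols matched directly and 424 through another symbol. The edgeR test was first run on simulated data with 200 changed genes.

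The members, lists and tests were chosen with earlier results of these data known. Named besides the 9 genes and Atr were the nearest gene on each side, the nearest profiles, the 2 smallest p-values of each list, and 5 further genes of the region, of which 1 is not reported here. Xylt1, Abhd2, Abhd5 and Idua were named after their values were seen. Alternatives were RLE scaling, filters, DESeq2 1.42.0, limma-voom (limma 3.58.1), a replicate block, covariates for the hair and Y-linked levels, and each library left out. The division by hair level was added after the data were seen.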

Additional observations from a re-analysis of the deposited data

How the results depend on the processing

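All 9 genes kept their direction in all 15 fits. This is largely built in, since their groups did not overlap, and the fits with other filters gave the same values as the main fit. The number of genes past an adjusted p under 0.05 was 7 as reported by edgeR, 39 with DESeq2, 4 with the Y-linked covariate, 6 with the replicate block, and between 4 and 10 with 1 library left out (4 without ATR WT 2, ATR WT 3 or ATR mD/mD 1). Zfp949 was called in edgeR and limma-voom, and its adjusted p with 1 library left out ran from 0.0350 (without ATR WT 1, the only one of 6 to pass) to 0.195. DESeq2 called 5 of the 9 genes. Zfp949 had an adjusted p of 0.0695 with the replicate block and 0.178 with the Y-linked covariate. The deviations of same-numbered libraries correlated at 0.633 for number 1 and 0.573 for number 3 but at -0.509 for number 2, so the numbers were not taken as pairs. The count of 21 genes of the region at an unadjusted p under 0.05 was 34 with the hair covariate, 20 with the replicate block, 9 within 10 Mb, and 14 to 36 with 1 library left out (36 without ATR mD/mD 3). The count of 1230 genes past the hair term was 89 with the replicate block and 150 to 1165 with 1 library left out. For the 9 genes, the lowest adjusted p of the hair term over all its fits was 0.153. The 10 Mb window holds fewer genes, and fits without a library have fewer samples. The causes of the changes between fits were not tested. Among the 9 genes, depth limits 9430037G07Rik most, at 48 to 133 counts per library.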

Other observations

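Chromosome 9 was not alone in holding many genes with an unadjusted p under 0.05 between ATR mD/mD and ATR WT (edgeR). The share was 3.77% on chromosome 4 (34 of 901 genes), 3.52% on chromosome 9 (29 of 825), 2.84% on chromosome 17 (20 of 703) and 2.57% on chromosome 7 (29 of 1127), against 1.66% of all genes. On chromosome 9 it was 7.66% within 20 Mb of Atr (21 of 274), where the 9 picked genes lie. Beyond 20 Mb it was 1.45% (8 of 550). These shares are a description, and no test was made of any difference between chromosomes.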
